A study of Homo sapiens with 6 samples.

Results

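The 8 genes described here are the SOCS (suppressor of cytokine signalling) family, SOCS1 to SOCS7 and CISH, followed in HT1080 cells, a human fibrosarcoma line. Members were taken by gene symbol, and each of the 8 had 1 entry among the 21619 entries of the deposited gene table. PolyA RNA was sequenced from 3 libraries of HT1080 cells that stably overexpress the glycolytic enzyme PGK1 (PGK1_OE) and from 3 libraries of HT1080 cells labelled wild type (WT). The labels do not give the promoter of the PGK1 construct, whether the line is 1 clone, or whether the WT cells carry an empty vector. They do not say whether the 3 libraries of a group came from separate cultures, so the p-values measure the spread between libraries, which may be technical.

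SOCS proteins act as feedback brakes on cytokine and growth hormone signalling. Cytokine receptors activate Janus kinases (JAKs), which phosphorylate STAT transcription factors, and STATs in turn raise transcription of several SOCS genes. Each SOCS protein carries an SH2 domain that binds phosphorylated tyrosines and a SOCS box that recruits elongins B and C and a cullin to form a ubiquitin ligase. SOCS1 and SOCS3 can also block JAK catalytic activity directly, and SOCS2 is a proposed ligase adaptor for SLC7A11, the cystine transporter that the title of the series names.

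The libraries held between 35851668 and 40538274 counts in PGK1_OE and between 34425162 and 37500947 counts in WT. PGK1 itself, which checks the labels, stood at 12660 ± 597 CPM (counts scaled to library size with TMM factors) in PGK1_OE and 523 ± 4.03 CPM in WT (SD, n = 3 each). Of 8 mesenchymal markers, 6 averaged at least 1 FPKM in both groups, among them VIM and FN1, while COL1A1 and COL1A2 did not, and the summed level was 1828 to 1869 FPKM in PGK1_OE and 943 to 1138 FPKM in WT. The haematopoietic markers PTPRC and CD14 were listed at 0 in all 6 libraries, and the 6 haematopoietic markers summed to at most 0.666 FPKM in PGK1_OE and 0.377 FPKM in WT. Of 6 epithelial markers EPCAM was listed at 0 and 2, KRT8 and KRT18, averaged at least 1 FPKM in each group, and the summed level was 178 to 189 FPKM in PGK1_OE and 86.0 to 96.8 FPKM in WT. The 4 endothelial markers summed to 1.64 to 2.47 FPKM in PGK1_OE and 0.634 to 0.726 FPKM in WT, and PECAM1 alone of them averaged at least 1 FPKM, in PGK1_OE. The mesenchymal, epithelial and endothelial sums were thus all higher in PGK1_OE, and the part of these differences in the results below was not tested. In bulk RNA, a lower level in every cell and fewer cells with the mRNA cannot be told apart.

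Before the levels, promoter windows of 5 members were searched for letters that factors such as STATs and interferon regulatory factors are known to bind. RefSeq promoter windows of 300 bases (250 before and 50 after a transcript start, GRCh38.p14) were matched by symbol for 5 members, with 6 windows, since SOCS3 has a pair of starts. The remaining members, SOCS2, SOCS5 and SOCS7, were not analysed here for promoter sequence. The SOCS3 start in GENCODE 29 (chromosome 17, 78360077) lies between its windows, which span 78359618 to 78359917 and 78360876 to 78361175. The bases just before that start were therefore not searched, so a lack of matches for SOCS3 holds for its windows alone. The letters TTCNNNGAA, which read the same on both strands, occurred 4 times in the CISH window and in none of the windows of SOCS1, SOCS3, SOCS4 and SOCS6. Of 34943 distinct windows of the same length, 7.66% held at least 1 match and 7 windows (0.0200%) held 4 or more. The letters GAAANNGAAA, searched on both strands, occurred once in the SOCS1 window and in no other member's window, and 3.57% of all windows held them. The wider spacing TTCNNNNGAA (6.46% of all windows) and the letters TGATGNAA (3.62%) had no match in the members' windows. Both stretches are on the minus strand and are given 5′ to 3′, with the matches in capitals. The CISH stretch is chr3:50611875-50612024, from 250 to 101 bases before the start, and the SOCS1 stretch is chr16:11256278-11256347, from 143 to 74 bases before the start.
CISH: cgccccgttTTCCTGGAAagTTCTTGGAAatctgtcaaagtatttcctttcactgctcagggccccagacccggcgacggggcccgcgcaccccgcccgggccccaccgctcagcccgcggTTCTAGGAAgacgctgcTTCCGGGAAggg
SOCS1: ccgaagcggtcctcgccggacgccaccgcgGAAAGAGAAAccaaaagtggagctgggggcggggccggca
These matches describe the sequence alone. They are not evidence that a factor was bound in these cells.

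The comparison asked how the mRNAs of these signalling brakes differed between PGK1_OE and WT cells. SOCS1, SOCS3 and SOCS5 rose, SOCS2, SOCS4, SOCS6 and SOCS7 fell, and CISH did not pass the test. The changes at either end were a 4.10-fold fall of SOCS2 and a 5.31-fold rise of SOCS1, and the fall of SOCS2 rested on far more counts. All 8 members passed the filter on low counts, but SOCS1 and CISH passed it only through the PGK1_OE libraries, where both counted higher, so the number that passed supports nothing about them. With edgeR's quasi-likelihood test and Benjamini-Hochberg adjustment over 14322 entries, 7 members had an adjusted p under 0.05, 3 higher and 4 lower in PGK1_OE. Among all entries tested 71.2% were called, 35.4% higher and 35.8% lower, so the share of members called is not particular to the family. A change of at least 2-fold was called for 4 members, SOCS1, SOCS2, SOCS3 and SOCS5, against 24.1% of all entries. SOCS1 is among them although it passed the filter only through PGK1_OE, so this number supports nothing about the family. The median log2 fold change was 0.41 over the members and -0.02 over all entries. The median of the members includes SOCS1 (2.41) and CISH (1.28), which the filter let in through PGK1_OE alone. It therefore supports no shift of the family.

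**Figure D1:**
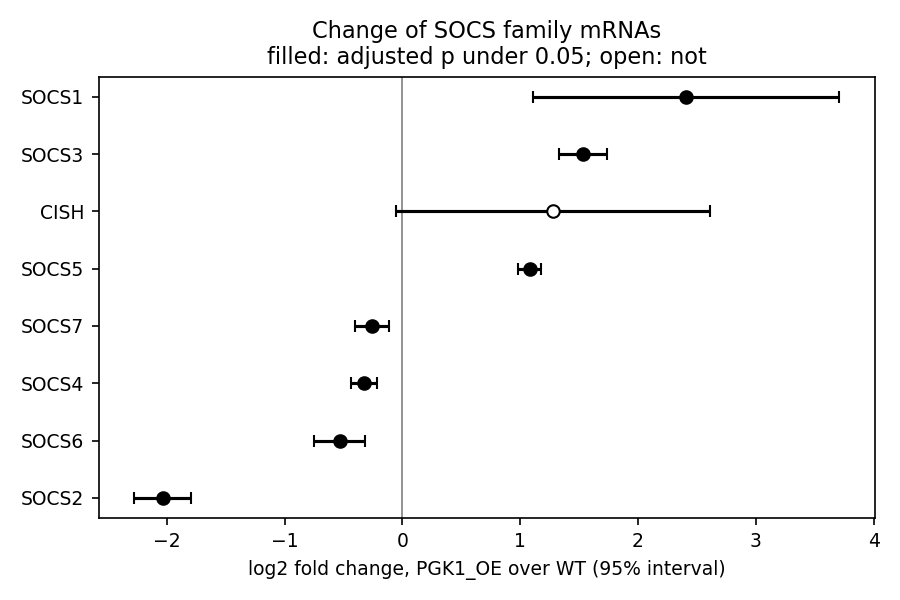
Log2 fold change of each member, PGK1_OE over WT, on the x axis, with its 95% interval from edgeR; filled points had an adjusted p under 0.05. SOCS2 lies lowest at -2.03, SOCS1 highest at 2.41, and the intervals of SOCS1 and CISH are the widest.

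SOCS2 limits growth hormone receptor signalling. The gene (ENSG00000120833) lies on chromosome 12, 93569814 to 93583487 on the plus strand of GRCh38. It had 184, 198 and 148 counts in PGK1_OE, against 729, 684 and 657 counts in WT. As normalised CPM this was 4.60, 4.99 and 4.20 in PGK1_OE and 19.2, 19.4 and 18.0 in WT. The 3 PGK1_OE libraries lay close together and all far below the 3 WT libraries, with no overlap. SOCS2 averaged 4.60 ± 0.396 CPM in PGK1_OE and 18.8 ± 0.780 CPM in WT (SD, n = 3 each). The log2 fold change was -2.03 with a 95% interval of -2.28 to -1.79 (SE 0.11, adjusted p = 1.48e-08 by edgeR). Among all entries tested, 3.65% were lower by at least as much. The annotated exons overlap those of the antisense gene SOCS2-AS1, which was not analysed here, so its reads cannot be separated if counting ignored strand.

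SLC7A11, for which SOCS2 is a proposed ligase adaptor, was also lower. It stood at 6.10, 12.1 and 9.53 CPM in PGK1_OE and at 252, 203 and 257 CPM in WT, with no overlap. Its log2 fold change was -4.68 (SE 0.28, adjusted p = 1.21e-04 by edgeR). Both values are mRNA levels, and ubiquitylation and protein were not measured here.

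The patterns most like that of SOCS2 across the 6 libraries, by Pearson correlation of log2 CPM over 10809 named entries whose log2 CPM averaged 2 or more, were those of ZNF627, GDAP2 and GOSR1 (r = 0.9999, 0.9999 and 0.9999). All 3 fell, with log2 fold changes of -1.71 (SE 0.08), -0.86 (SE 0.06) and -0.92 (SE 0.05). With 2 separated groups, such correlations mostly restate the difference between groups, and 1140 entries reached an r of at least 0.99 with SOCS2.

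CISH, the member closest to SOCS2 in sequence and a brake on interleukin and erythropoietin receptor signalling, was barely detected. The gene (ENSG00000114737) lies on chromosome 3, 50606490 to 50611831 on the minus strand. It had 19, 35 and 29 counts in PGK1_OE, against 23, 6 and 4 counts in WT. Per library this was 0.475, 0.882 and 0.823 CPM in PGK1_OE and 0.607, 0.170 and 0.109 CPM in WT. PGK1_OE replicate 1 lay below WT replicate 1, so the groups overlapped. The exact 95% Poisson intervals of these 2 libraries were 0.286 to 0.742 CPM for PGK1_OE replicate 1 and 0.385 to 0.911 CPM for WT replicate 1. The log2 fold change was 1.28 with a 95% interval of -0.05 to 2.61 (SE 0.61, adjusted p = 0.0784 by edgeR). Without WT replicate 1 it was 2.36 (edgeR adjusted p = 0.00664), so the edgeR call depended on this 1 library. With all 6 libraries, limma-voom gave 1.55 (adjusted p = 0.0465), so the call also depended on the method. The summed counts, 83 in PGK1_OE and 33 in WT, gave a ratio of 2.40 with an exact 95% interval of 1.59 to 3.72 that covers counting error only.

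The CISH value carries a further limit. Its annotated exons overlap those of MAPKAPK3, a protein kinase gene on the opposite strand with 18901 counts in PGK1_OE and 14627 counts in WT. MAPKAPK3 rose, at 164 ± 5.84 CPM in PGK1_OE and 133 ± 1.34 CPM in WT (0.30 ± 0.04 (SE) on the log2 scale, with an adjusted p of 2.82e-05 by edgeR). The strand setting of the counting is not given in the sources used here, and whether reads of MAPKAPK3 entered the CISH counts was not tested.

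SOCS1 and SOCS3 carry a segment that inhibits the JAK kinase itself. SOCS3 binds the shared gp130 receptor of the interleukin-6 family, and SOCS1 is known as a brake on interferon signalling. Both rose, SOCS3 at a level well above that of SOCS1. SOCS3 (ENSG00000184557, chromosome 17, 78356778 to 78360077, minus strand) stood at 24.8, 25.2 and 23.1 CPM in PGK1_OE and at 7.76, 8.91 and 8.63 CPM in WT. The groups were well apart, with means of 24.4 ± 1.11 CPM in PGK1_OE and 8.44 ± 0.602 CPM in WT. The log2 fold change was 1.53 with a 95% interval of 1.33 to 1.73 (SE 0.09, adjusted p = 3.61e-08 by edgeR), a 2.89-fold rise.

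SOCS1 (ENSG00000185338, chromosome 16, 11254405 to 11256200, minus strand) had 51, 41 and 34 counts in PGK1_OE, against 2, 15 and 5 counts in WT. This was 1.27, 1.03 and 0.965 CPM in PGK1_OE and 0.0528, 0.424 and 0.137 CPM in WT, so the groups did not overlap but the WT libraries spread widely. The log2 fold change was 2.41 with a 95% interval of 1.11 to 3.71 (SE 0.59, adjusted p = 0.00320 by edgeR). Without WT replicate 2, the WT library with the most counts, it was 3.50 (edgeR adjusted p = 2.996e-04), and over the other 5 libraries left out in turn it ran from 1.96 to 2.48. The summed counts of 126 in PGK1_OE and 22 in WT gave a ratio of 5.47 with an exact 95% counting interval of 3.46 to 9.05. SOCS1 overlaps the bounds of RMI2, a gene on the opposite strand, without overlap of annotated exons. RMI2 stood at 17.2 ± 0.729 CPM in PGK1_OE and 7.39 ± 0.576 CPM in WT (1.22 ± 0.10 (SE) on the log2 scale, with an adjusted p of 7.50e-07 by edgeR), and its part in the SOCS1 value was not tested.

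SOCS4 and SOCS5 are close paralogs that have been linked to turnover of the EGF receptor, and they moved in opposite directions. SOCS5 (ENSG00000171150, chromosome 2, 46698952 to 46780245, plus strand) stood at 113, 118 and 117 CPM in PGK1_OE and at 55.8, 55.7 and 53.0 CPM in WT. Every PGK1_OE library was above 2 times the level of every WT library. The log2 fold change was 1.08 with a 95% interval of 0.99 to 1.18 (SE 0.04, adjusted p = 1.47e-09 by edgeR). The annotated exons overlap those of LINC01118 on the same strand, which was not analysed here.

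SOCS4 (ENSG00000180008, chromosome 14, 55027230 to 55049488, plus strand) stood at 103, 112 and 102 CPM in PGK1_OE and at 134, 138 and 127 CPM in WT. The groups did not overlap, and the log2 fold change was -0.33 with a 95% interval of -0.43 to -0.22 (SE 0.05, adjusted p = 9.51e-05 by edgeR), a fall of 1.25-fold. Compared per length in FPKM, SOCS5 was 1.61, 1.53 and 1.66 times SOCS4 in the PGK1_OE libraries, against 0.602, 0.587 and 0.605 times in the WT libraries. The order of the paralogs was thus SOCS5 above SOCS4 in each PGK1_OE library and SOCS4 above SOCS5 in each WT library. This ratio within a library does not depend on how libraries are scaled, and it was taken up after the values were seen.

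SOCS6 and SOCS7 form another paralog pair, linked to insulin receptor signalling, and both fell modestly. SOCS6 (ENSG00000170677, chromosome 18, 70288901 to 70330200, plus strand) stood at 10.8, 10.9 and 9.76 CPM in PGK1_OE and at 15.6, 15.3 and 14.6 CPM in WT. Its log2 fold change was -0.53 with a 95% interval of -0.75 to -0.32 (SE 0.10, adjusted p = 4.07e-04 by edgeR). SOCS7 (ENSG00000274211, chromosome 17, 38352228 to 38405593, plus strand) stood at 37.5, 35.4 and 32.2 CPM in PGK1_OE and at 43.3, 41.7 and 41.0 CPM in WT. In both genes the groups did not overlap, although the SOCS7 libraries of PGK1_OE spread by more than those of WT. The log2 fold change of SOCS7 was -0.26 with a 95% interval of -0.41 to -0.12 (SE 0.07, adjusted p = 0.00377 by edgeR), the smallest change of the 8. Per length, SOCS6 was 0.275 ± 0.0116 times SOCS7 in PGK1_OE and 0.343 ± 0.0352 times in WT (SD, n = 3 each). In all, the groups did not overlap for 7 of the 8 members, and for 76.4% of all entries tested.

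**Figure D2:**
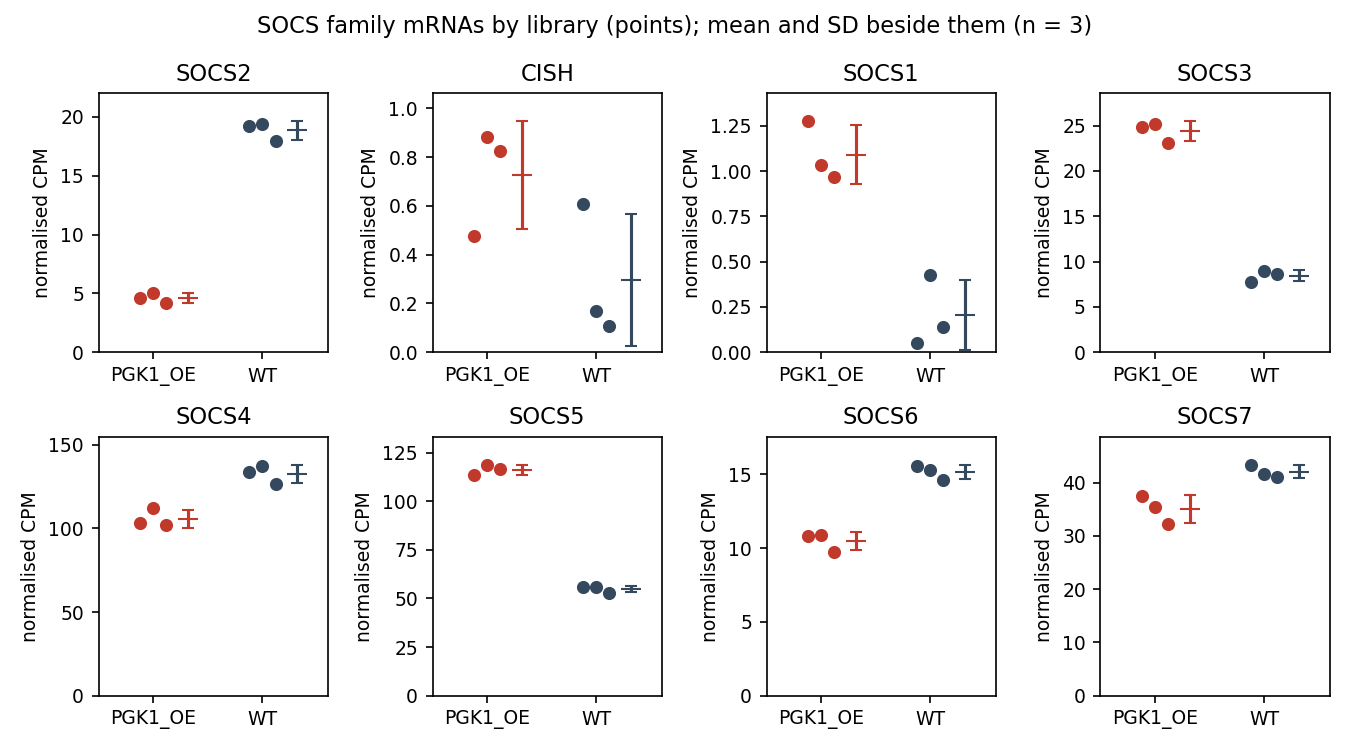
Normalised CPM (y axis, from 0, a scale for each gene) of the 8 members in the 3 PGK1_OE and 3 WT libraries, as points, with the group mean and SD beside them. The groups are apart for every member but CISH, in which PGK1_OE replicate 1 (0.475 CPM) lies below WT replicate 1 (0.607 CPM).

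Levels of different members were compared per length, with the deposited FPKM. In PGK1_OE the order was SOCS5 (22.6 ± 0.325 FPKM), SOCS4 (14.1 ± 0.771), SOCS3 (8.16 ± 0.408), SOCS7 (6.12 ± 0.491), SOCS2 (2.26 ± 0.573), SOCS6 (1.68 ± 0.107), SOCS1 (0.732 ± 0.136) and CISH (0.312 ± 0.0958 FPKM). Of the neighbours in that order, SOCS2 and SOCS6 overlapped between libraries and the others did not. In WT the order was SOCS4 (18.3 ± 0.891 FPKM), SOCS5 (10.9 ± 0.380), SOCS2 (10.2 ± 1.17), SOCS7 (7.41 ± 0.901), SOCS3 (2.92 ± 0.220), SOCS6 (2.52 ± 0.0938), SOCS1 (0.126 ± 0.144) and CISH (0.121 ± 0.116 FPKM), and here SOCS5 overlapped SOCS2 and SOCS1 overlapped CISH.

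The summed level of the 8 members differed little next to the shifts within it. It was 55.7, 58.3 and 54.1 FPKM in the PGK1_OE libraries and 54.5, 52.1 and 50.9 FPKM in the WT libraries, with overlap between groups. Within that sum SOCS5 made up 40.4% ± 1.11 in PGK1_OE and 20.8% ± 0.659 in WT, and SOCS3 made up 14.6% ± 0.378 in PGK1_OE and 5.57% ± 0.574 in WT. SOCS2 made up 4.02% ± 0.909 in PGK1_OE and 19.4% ± 2.09 in WT (SD, n = 3 each).

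For 4 of the 8 members the FPKM did not follow the counts evenly. The FPKM that 1 CPM of raw counts corresponded to ran from 0.418 to 0.701 over the 6 libraries for SOCS1, a spread of 1.68 times, and from 0.382 to 0.587 for SOCS2, a spread of 1.54 times. The spread was 1.33 times for CISH and 1.21 times for SOCS7, whereas for SOCS3, SOCS4, SOCS5 and SOCS6 the highest library was at most 1.02 times the lowest. GENCODE 29 annotates 12 SOCS2 transcripts of 462 to 3733 nucleotides. The tool behind the FPKM values is not given in the sources used here, and the part of transcript use in this spread was not tested.

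**Figure D3:**
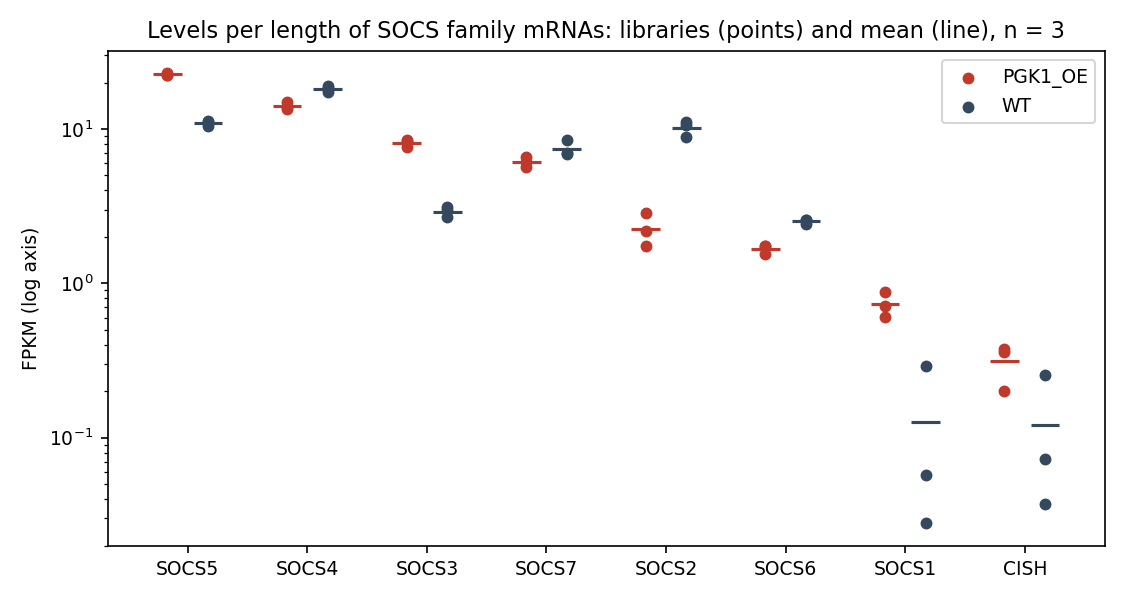
Deposited FPKM (y axis, log scale) of the 8 members, ordered by their mean in PGK1_OE, with points for the 3 libraries of PGK1_OE and of WT and a line at each mean. SOCS2 is in the fifth place in PGK1_OE at 2.26 FPKM and the third in WT at 10.2 FPKM, while SOCS5 is first in PGK1_OE and second in WT.

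Genes that act before and after the SOCS proteins were read from 9 lists, by counts only, beside the 71.2% of all entries called. Of 26 ligands of JAK-coupled receptors, 10 were tested, 3 rose and 5 fell, with a median log2 fold change of -1.04. TSLP (0, 0 and 11 counts in PGK1_OE, 182, 175 and 165 in WT) passed the filter only through WT. CSF2 (32, 27 and 22 counts in PGK1_OE, 4, 12 and 4 in WT) passed it only through PGK1_OE. Lists below hold such genes too, among them PRLR, IL2RG and ASB18. The numbers and medians of the lists therefore support no shift of a list. Of the gp130 ligands among them, LIF, IL6 and IL11 fell and CLCF1 rose. LIF stood at 28.6 ± 1.94 CPM in PGK1_OE and 145 ± 9.80 CPM in WT (-2.35 ± 0.07 (SE) on the log2 scale, with an adjusted p of 1.01e-10 by edgeR). IL6 stood at 3.76 ± 0.0680 CPM in PGK1_OE and 16.3 ± 1.92 CPM in WT (-2.11, SE 0.13), and IL11 at 24.5 ± 2.10 CPM in PGK1_OE and 108 ± 13.6 CPM in WT (-2.14, SE 0.10). CLCF1 stood at 7.34 ± 0.0457 CPM in PGK1_OE and 3.40 ± 0.643 CPM in WT (1.11, SE 0.17, edgeR adjusted p = 1.16e-04). Thrombopoietin, THPO, fell (-1.77, SE 0.18).

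Of 39 receptors 30 were tested, 11 rose and 9 fell (66.7% called, median 0.11). The interferon-gamma receptor subunit IFNGR1 fell (-1.22, SE 0.06) and the type I interferon receptor subunit IFNAR1 rose (0.56, SE 0.05). IL6R, the ligand-binding interleukin-6 receptor, fell (-1.30, SE 0.11), and IL13RA1 rose (0.71, SE 0.06). The gp130 subunit IL6ST, named after its values were seen, was at 384 ± 10.8 CPM in PGK1_OE and 396 ± 24.5 CPM in WT. Its log2 fold change was -0.05 (SE 0.05, adjusted p = 0.400 by edgeR), and its sign turned without WT replicate 1 (0.0046).

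Of the 4 Janus kinases, JAK3 was not tested. TYK2 rose, with 69.6 ± 2.98 CPM in PGK1_OE and 42.1 ± 1.79 CPM in WT (0.72, SE 0.06), and JAK2 fell, with 24.5 ± 0.281 CPM in PGK1_OE and 38.9 ± 4.34 CPM in WT (-0.67, SE 0.08). JAK1 was at 0.04 (SE 0.04, adjusted p = 0.363 by edgeR), and its sign turned under library totals and under the 3 FPKM fits (-0.01 in each).

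Of the STAT factors, which were read gene by gene, STAT3, which transduces gp130 signals, stood at 155 ± 7.83 CPM in PGK1_OE and 88.8 ± 1.76 CPM in WT (0.80, SE 0.05, edgeR adjusted p = 2.33e-08). STAT2, a transducer of type I interferon signals (0.30, SE 0.05), and STAT6, which transduces interleukin-4 signals (0.40, SE 0.04), also rose. The growth hormone transducers were lower, STAT5A with 0.351 ± 0.132 CPM in PGK1_OE and 1.36 ± 0.182 CPM in WT (-1.93, SE 0.40), and STAT5B with 64.8 ± 1.78 CPM in PGK1_OE and 72.6 ± 2.59 CPM in WT (-0.16, SE 0.05). STAT5A passed the filter only through WT, with 17, 17 and 7 counts in PGK1_OE and 56, 51 and 42 in WT. The STAT5B call was lost without WT replicate 1 (edgeR adjusted p = 0.0574).

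Of 19 genes that STATs are known to induce, other than the SOCS genes, 17 were tested, 4 rose and 12 fell (94.1% called, median -0.56). MYC stood at 33.3 ± 1.54 CPM in PGK1_OE and 418 ± 4.99 CPM in WT (-3.65, SE 0.05), and HIF1A fell (-1.41, SE 0.04). The cyclin gene CCND1 rose (1.18, SE 0.04), as did ID1 (3.23, SE 0.13). STATs are one of many inputs to these genes.

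Other inhibitors of JAK-STAT signalling were tested for 16 of 18 genes, of which 9 rose and 4 fell (81.2% called, median 0.19). The adaptor SH2B3, a brake on JAK2, rose (0.94, SE 0.05), as did the corepressor TRIM28 (1.07, SE 0.05). The ubiquitin ligase CBLB (-1.61, SE 0.09) and the phosphatase PTPN2 (-0.71, SE 0.05) fell.

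All 16 elongin, cullin and RING partners were tested, of which 5 rose and 8 fell (81.2% called, median -0.11). For the ligase core that SOCS boxes recruit, CUL5 stood at 72.8 ± 2.16 CPM in PGK1_OE and 85.9 ± 2.83 CPM in WT (-0.24, SE 0.05), and its RING partner RNF7 fell by a log2 fold change of -0.49 (SE 0.04). Elongin C (ELOC) fell (-0.45, SE 0.06) and elongin B (ELOB) rose (0.28, SE 0.06). RBX1, the RING partner of CUL2, stood at 44.3 ± 3.90 CPM in PGK1_OE and 18.6 ± 1.14 CPM in WT (1.25, SE 0.08), and CUL2 rose (0.54, SE 0.05). The neddylation enzyme UBE2F, which serves CUL5, fell (-0.57, SE 0.07), and so did ARIH2, a ligase that works with CUL5 (-0.50, SE 0.03). The calls of UBE2D2 and DCUN1D1 were each lost under several alternatives.

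Of 31 other SOCS-box genes 21 were tested, 6 rose and 7 fell (61.9% called, median -0.12), with ASB1 (-1.58, SE 0.04), PCMTD2 (-1.06, SE 0.05) and RAB40A (-2.07, SE 0.25) lower and SPSB1 (0.84, SE 0.08) higher. Of 25 reported targets and partners of SOCS proteins 16 were tested, 6 rose and 7 fell (81.2% called, median 0.08). EGFR, the receptor linked to SOCS4 and SOCS5, stood at 186 ± 6.50 CPM in PGK1_OE and 488 ± 9.14 CPM in WT (-1.39, SE 0.04, edgeR adjusted p = 9.02e-11). The ligase gene RBCK1 (-1.61, SE 0.05) and the SH2 adaptor NCK1 (-0.72, SE 0.05) fell, and the docking protein gene BCAR1 rose (0.94, SE 0.06).

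Of 15 genes reported to act on SLC7A11 ubiquitylation or stability, SLC7A11 and SOCS2 included, 6 rose and 8 fell (93.3% called, median -0.11). SLC3A2, the partner subunit of SLC7A11, stood at 103 ± 8.19 CPM in PGK1_OE and 728 ± 6.34 CPM in WT (-2.82, SE 0.05). The ubiquitin ligase gene TRIM3 rose (1.83, SE 0.09) and the deubiquitinase gene USP20 fell (-1.30, SE 0.09). Exons of the named genes STAT6, JAK1, SH2B3, CCND1, IL6, THPO, NEDD8, ELOB, USP20 and ZNF627 overlap a tabulated gene on the opposite strand. Those of NCK1, UBE2F, CLCF1 and RNF7 overlap one on the same strand. The values of all these genes are uncertain, to an extent that was not tested. Over all 6 libraries the overlapping gene held 100885 counts for ELOB, 20 for IL6 and 0 for RNF7. Exons of LIF, IL6ST, EGFR, SLC7A11, HIF1A, BCAR1, ASB1, RAB40A, CUL5 and ARIH2 overlap annotated genes that were not analysed here.

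**Figure D4:**
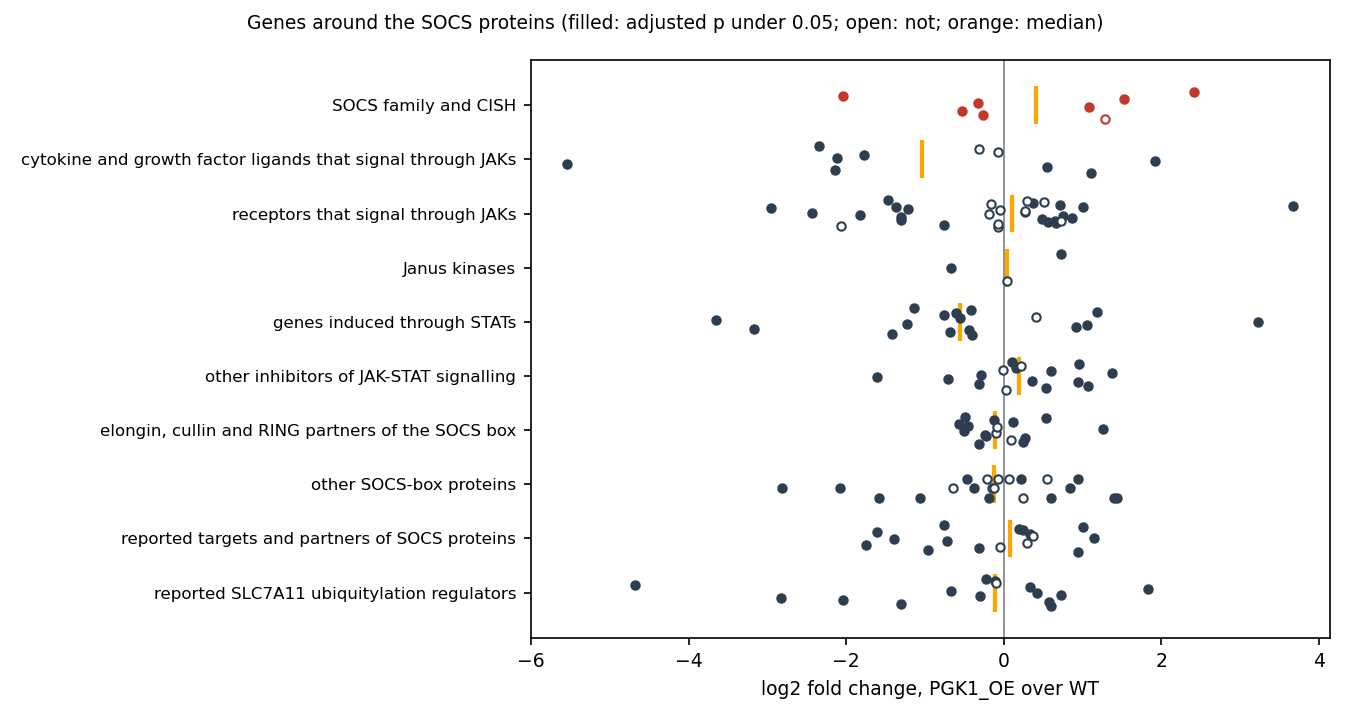
Log2 fold change, PGK1_OE over WT (x axis), of each tested gene of the SOCS family (top, red) and of the 9 lists (dark), 1 point a gene, filled where the adjusted p was under 0.05, with the median as an orange line. Ligands have the lowest median (-1.04), which includes TSLP and CSF2, let in by the filter through WT alone and PGK1_OE alone. The leftmost ligand, TSLP, had 0, 0 and 11 counts in PGK1_OE, so its fitted value depends on the prior count.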

How the data were processed

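PolyA RNA of 6 libraries was analysed, with groups and replicate numbers from the sample titles and table columns matched through the descriptions. The tools fastp and HISAT and build hg38 are named per the submitters' processing notes. Versions, read counter, strand setting and annotation: not given in the sources used here. Raw counts per gene make up the deposited count table. The deposited FPKM values are scaled by the authors for length and library size, and FPKM means are arithmetic means of 3 libraries. Of 21619 entries, 3422 were at 0 in all libraries and 1158 carried MSTRG identifiers (0.772% to 1.00% of counts).

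Counts were fitted in R 4.3.3 with edgeR 4.0.16: filterByExpr by group (minimum count 10; 14322 entries left), TMM scaling, a robust quasi-likelihood fit with group as the only term, two-sided, Benjamini-Hochberg adjustment over all entries and a threshold of 0.05. SE is the absolute log2 fold change over the square root of F. Log2 CPM used a prior count of 2. Depth was 34425162 to 40538274 counts, which leaves wide counting intervals for SOCS1 and CISH. Replicates of a group were not repeats of 1 library: a chi-square comparison of their counts gave 7.67 to 14.6 for each degree of freedom, beyond sampling noise. The fit was tested on simulated data in which far fewer genes changed than were called here. That test does not cover so widespread a change.

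Named genes are the 8 members, PGK1, SLC7A11, up to 4 genes per list by smallest adjusted p, the Janus kinases, STATs and SOCS-box partners, and the 3 entries most correlated with SOCS2; CLCF1 and IL6ST were named after their values were seen. One gene that this rule names is not reported here. The members, lists and tests were chosen with earlier results of these data known. Lists got no test. Coordinates and exon overlaps come from GENCODE 29 (GRCh38, the build of hg38), matched by Ensembl identifier for all 8 members. Alternatives were RLE factors, library totals, PGK1 left out, no filter, 1 CPM in 3 libraries, DESeq2 1.42.0, limma-voom (limma 3.58.1), limma on log2(FPKM + 1) or log2(FPKM + 0.1) where 3 libraries reached an FPKM of 1, log2(FPKM + 1) unfiltered, a block for the replicate number, each library left out, and an adjusted p under 0.01.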

Additional observations from a re-analysis of the deposited data

How the results depend on the processing

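Of the 8 members, SOCS1 to SOCS6 kept their direction and stayed past the threshold under every alternative that gave a value. SOCS7 lost its call on log2(FPKM + 1) without a filter, at -0.24 (limma adjusted p = 0.0854). CISH passed under limma-voom, at 1.55 (adjusted p = 0.0465), and without WT replicate 1, at 2.36. Each library left out in turn gave 0.90 to 2.36 for CISH, 1.96 to 3.50 for SOCS1 and -2.10 to -1.97 for SOCS2. SOCS1 and CISH gave no value with 1 CPM in 3 libraries or under the FPKM filter, and on log2(FPKM + 1) without it, a scale that understates low genes, SOCS1 was at 0.63 (limma adjusted p = 0.00284) and CISH at 0.23 (adjusted p = 0.0727). Between 6 and 8 members were called. The number of entries called ran from 8831 to 10343 over the alternatives, and library totals gave 4786 higher and 5443 lower. Replicates with the same number showed little shared deviation (r = -0.01, -0.01 and 0.10), so no strong pairing by number was seen. The value for replicate 3 was the highest among all pairs across groups, and 3 libraries a group cannot settle a weak pairing. With the replicate number as a block, 9943 entries and 7 members were called, SOCS1 was at 2.64 (adjusted p = 0.00683) and SOCS2 kept its call.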
